A study of Mus musculus with 6 samples.

Results

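Clone 2 of the mouse collecting duct cell line mpkCCD is the only one of 6 lines labelled as not expressing aquaporin 2 (AQP2, gene Aqp2), and it was compared here, gene by gene, with the 5 lines labelled as expressing it. These were clones 3, 9, 10 and 11 and a line called original. The series' design text says that mpkCCDc14 cells were cloned into colonies, and the original line is described in one label as the original cells and titled a clone in another, so whether it is uncloned is not settled here. All 6 lines, clone 2 included, received dDAVP, an analog of vasopressin, at 0.1 nM for 5 days, so no line was without the hormone. Each line gave 1 Affymetrix array, each clone is a single colony, and the spread used in every test is that between lines, so differences of line, of culture and of array cannot be told apart. Clone 2 was assumed to vary as the 5 other lines do, and its label cannot be told apart from its other traits.

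Signals were compared as log2(signal + 18.81), and 22518 of 45037 non-control probe sets, those with a mean signal above 85.46 (the median), were tested. They named 10342 genes, each represented by its probe set of highest mean signal. The genes described below are the 219 whose value in clone 2 lay at least 2-fold above the highest or at least 2-fold below the lowest of the 5 lines, 2.12% of those measured. There were 107 above (1.03%) and 112 below (1.08%). Of these, 32 of the 107 belong to an interferon list and 4 of the 112 to a principal cell list, which leaves 75 higher and 108 lower genes that are grouped by function here.

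The collecting duct is the last segment of the kidney tubule, where urine receives its final concentration. Its principal cells take up water through AQP2 and sodium through the epithelial sodium channel, both under hormonal control. Vasopressin acts through a receptor that raises cAMP, which moves AQP2 to the apical membrane and increases transcription of its gene. Neighbouring intercalated cells secrete acid or base. A cell line kept in culture can lose or gain such traits from colony to colony, and the study set out to find transcripts that follow Aqp2 between colonies.

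Aqp2 itself had a signal of 159 in clone 2, against 1698 in clone 3, 4683 in clone 9, 1066 in clone 10, 6578 in clone 11 and 3822 in the original cells. Clone 2 was the lowest and the expressing lines spanned a wide range of their own. The log2 difference was -4.05 (SE 0.79, limma adjusted p = 0.0388). Leaving out clone 11 (adjusted p = 0.0534) or the original cells (0.0859) ended the call, and the adjusted p lay between 0.0174 and 0.157 over all settings. The arrays were scaled alike, with median signals of 79.6 in clone 2 and 84.3 to 88.6 in the other lines. The cells carried epithelial markers throughout, with a summed signal of Krt8, Krt18, Cdh1, Epcam and Cdh16 of 79708 in clone 2 and 93376 to 102510 in the other lines. The 7 principal cell markers, Aqp2 among them, summed to 5457 against 12521 to 16745, but they did not all go together. The receptor gene Avpr2, at 1742 against 1417 to 1746, and the sodium channel subunit gene Scnn1b, at 194 against 96.6 to 507, lay inside the range of the 5 lines. All 5 fibroblast markers and all 4 markers of endothelium and leukocytes lay below the array median on every array, as did 4 of 5 intercalated cell, 3 of 4 proximal tubule, 2 of 3 loop and distal tubule and 4 of 5 squamous keratinocyte markers. Clone 2 was higher in the summed intercalated cell markers (1069 against 512 to 789), through the proton pump subunit gene Atp6v1b1 (949 against 413 to 687), and in those of the loop and distal tubule (146 against 22.6 to 120), through Umod, uromodulin (113 against 4.06 to 36). The proximal tubule markers summed to 248 against 901 to 1182, through Lrp2. The part of these markers in the results below was not tested.

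**Figure D1:**
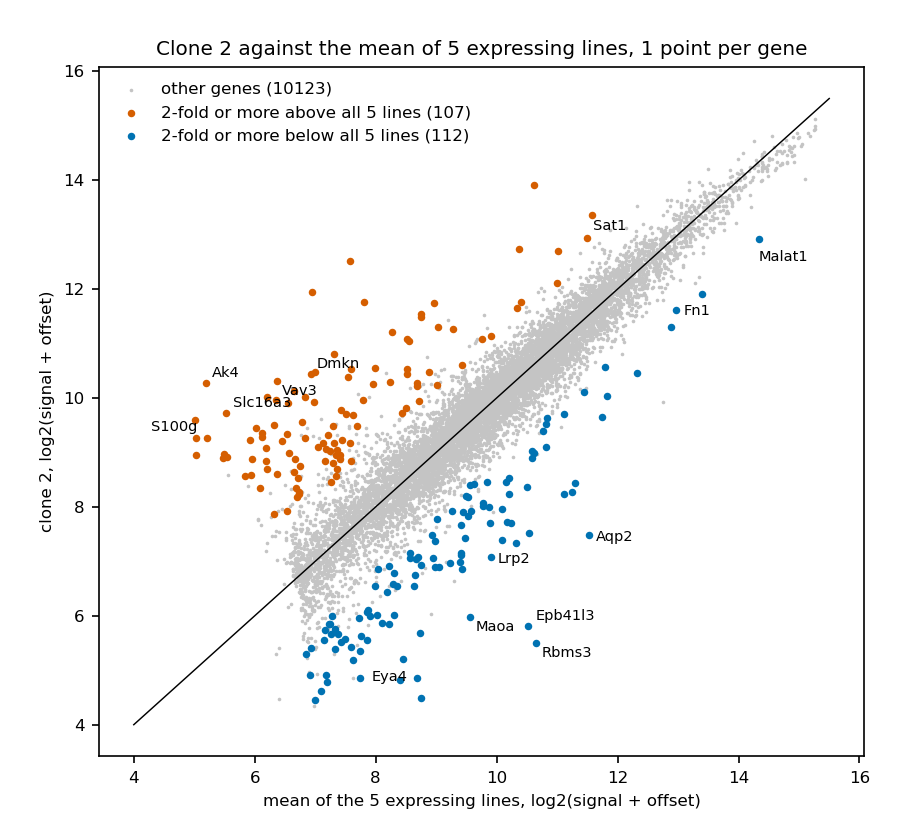
Each point is 1 of 10342 genes, with the mean log2 value of the 5 expressing lines on the horizontal axis and the value of clone 2 on the vertical axis. The 107 genes at least 2-fold above all 5 lines are orange, the 112 at least 2-fold below are blue, and the line marks equal values.

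The rule for these genes and the limma test use the same difference, so the share of them past the test is a description. By limma, 560 of 22518 probe sets (2.49%), 184 higher (0.817%) and 376 lower (1.67%), and 325 of 10342 genes passed at an adjusted p under 0.05 (3.14%), the genes being 133 higher (1.29%) and 192 lower (1.86%). With each array centred on its median the probe sets split into 254 higher and 232 lower. Among the 107 genes above the range 66 passed, and among the 112 below it 86 did. None of the 325 lay inside the range of the 5 lines, and 67 higher and 106 lower ones lay outside it by less than 2-fold. Clone 2 lay outside the range by any amount for 2998 genes above (29%) and 2787 below (26.9%). At the edge of the rule stood Bcl2l14, 2.01-fold above and kept, and Pdxp, 2.0-fold above and not kept. On the other side Ccdc149 was kept at 2.0-fold below and Slc4a3 was not at 1.99-fold.

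Several limits apply to all groups below. The mean of the expressing lines was under the filter for 29 of the 107 higher genes and for none of the lower ones, so those 29 could pass only through a high value in clone 2. Among them are Ak4, Slc16a3, S100g, Trpv6, Slc15a3, Il33, Il1f6, Vav3, Pla1a, Kcnk2 and Cebpa. Each of these genes had a value in 13 of the 15 settings, so a call in every setting means 13 for them. Many calls depended on single lines. Of the 66 higher and 86 lower genes called, 31 and 45 kept the call when the original cells were left out, and 48 and 54 when clone 11 was. The numbers were 53 and 67 on leaving out clone 10 and 55 and 66 on leaving out clone 3, and all calls held without clone 9. With each array centred on its median per chromosome, a setting added after the data were seen, 92 of the 107 and 87 of the 112 genes were still 2-fold outside the range. Some genes called in every setting were then less than 2-fold outside, namely Sat1, Ctsc, Chrac1, Fn1, Pdcd4, Plcg2, Malat1 and Hoxd3os1. This centring also ended calls for which only left-out lines are given below. They include Acsl4, Bst1, Cebpa, Ereg, Slc39a4, Tnfrsf22, Ackr3, Cpe, Frem2, Glul and Scd1. A total of 24 higher and 39 lower genes were called in every setting that gave a value (up to 15 a gene). Of the 24, 13 are interferon genes that are not described here, and the others are pointed out where they appear. Values of the 5 expressing lines are always given in the order clone 3, clone 9, clone 10, clone 11 and original cells.

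Genes known to respond to low oxygen or to handle lactate numbered 6 among the higher genes, and 3 of them rose, among them Ak4, the gene with the widest gap of all. Ak4, a mitochondrial adenylate kinase, had a signal of 1226 in clone 2 and of 6.82, 12.9, 42.6, 1.67 and 43.9 in the expressing lines (log2 difference 5.09, SE 0.67, limma adjusted p = 0.00966). Slc16a3, the monocarboxylate transporter that exports lactate, had 829 against 30.8, 12, 13.4, 62.4 and 33.7 (log2 difference 4.20, SE 0.56, limma adjusted p = 0.00998). All 5 lines lay far below clone 2 for both, in the range of signals under the array median, where the order of the lines carries little. Both genes passed the filter only through the value in clone 2. Slc16a3 was called in every setting, while the call for Ak4 was lost with an offset of 0 (adjusted p = 0.0832). Mb, myoglobin, the oxygen store of muscle, stood at 533 against 141, 74.4, 142, 85.2 and 146 and also rose (log2 difference 2.06, adjusted p = 0.0323), although not without clone 11 (0.0546) or the original cells (0.0615).

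The other 3 genes of this kind were 2-fold outside the range but did not pass the test. Egln3, a prolyl hydroxylase that marks the hypoxia-inducible factor for destruction, was at 6615 against 2183, 1018, 2269, 2519 and 2847 (limma adjusted p = 0.0792). P4ha2, a prolyl hydroxylase of collagen, was at 2867 against 891, 28.5, 607, 746 and 700 (adjusted p = 0.283), with clone 9 far below the other lines. Epas1, the oxygen-regulated transcription factor HIF-2 alpha, was at 694 against 333, 65.2, 237, 122 and 331 (adjusted p = 0.192). In the wider list of glycolysis, hypoxia and central carbon genes, 2 of 78 measured genes were called higher (2.56%, against 1.29% over all genes) and none lower, 3 were 2-fold above the range, and the median log2 difference was 0.13, against 0.01 over all genes.

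Upstream sequence of 4 of these genes is shown because hypoxia-inducible factors are known to bind a short core motif. The letters are the 250 bases before the first listed transcription start in RefSeq (assembly GRCm38.p6), with each ACGTG or GCGTG in capitals, read on either strand, so that CACGT and CACGC count too. The motifs were chosen with the expression values known.
Slc16a3 (chr11:120948817-120949066, strand plus): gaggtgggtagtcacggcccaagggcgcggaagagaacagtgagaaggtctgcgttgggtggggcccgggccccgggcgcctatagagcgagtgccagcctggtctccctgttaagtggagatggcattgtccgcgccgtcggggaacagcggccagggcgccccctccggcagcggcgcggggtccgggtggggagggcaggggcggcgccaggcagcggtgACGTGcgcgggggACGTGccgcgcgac
P4ha2 (chr11:54100674-54100923, strand plus): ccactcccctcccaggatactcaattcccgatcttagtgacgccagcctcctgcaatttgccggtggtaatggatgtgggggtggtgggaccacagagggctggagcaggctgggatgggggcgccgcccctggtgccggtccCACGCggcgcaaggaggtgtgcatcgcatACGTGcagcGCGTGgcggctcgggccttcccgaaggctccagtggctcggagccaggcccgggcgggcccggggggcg
Ak4 (chr4:101419039-101419288, strand plus): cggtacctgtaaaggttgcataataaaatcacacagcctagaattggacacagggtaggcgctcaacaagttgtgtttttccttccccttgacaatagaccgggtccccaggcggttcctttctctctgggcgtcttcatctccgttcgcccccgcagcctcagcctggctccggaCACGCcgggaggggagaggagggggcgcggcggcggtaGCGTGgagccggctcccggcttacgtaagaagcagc
Egln3 (chr12:54203875-54204124, strand minus): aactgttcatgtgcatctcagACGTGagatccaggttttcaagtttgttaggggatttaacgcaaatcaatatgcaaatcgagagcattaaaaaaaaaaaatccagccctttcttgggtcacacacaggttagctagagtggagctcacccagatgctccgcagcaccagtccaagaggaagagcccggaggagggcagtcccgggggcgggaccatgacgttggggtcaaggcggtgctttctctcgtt
In these windows Slc16a3 held 2 matches, P4ha2 3, Ak4 2 and Egln3 1, while the window of Mb held 0. ACGTG was present in 3 of the 5 oxygen-response genes with a listed promoter (60%), and in 22.7% of the 8459 tested genes that had one. With GCGTG allowed as well the shares were 80% and 59.1%. The 3 genes with ACGTG were Slc16a3, P4ha2 and Egln3, of which only Slc16a3 was called. The group was put together from genes known to respond to low oxygen or handle lactate, so its shares describe few genes and are no test. Among all 107 higher genes, of which 79 had a listed promoter, the wider motif was in 38%. That was below the 59.1% of the tested genes and near the 38.6% of all 27025 listed promoters. ACGTG alone was in 12.7% of the 79, against 22.7% of the tested genes. For the 56 matched higher genes whose mean over the expressing lines passed the filter, the wider motif was in 42.9%. A match describes letters and shows no binding.

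Calcium handling, channels and transporters formed the largest function group among the higher genes, with 13, of which 8 rose. S100g, the calcium-binding protein calbindin-D9k that shuttles calcium through epithelial cells, had a signal of 599 in clone 2 and 26.4, 1.46, 3.5, 37.8 and 13.1 in the other lines (log2 difference 4.24, SE 0.65, limma adjusted p = 0.0169). Trpv6, the apical calcium channel of absorbing epithelia, had 526 against 58.9, 33.6, 56.1, 72.9 and 53 (log2 difference 2.91, SE 0.38, limma adjusted p = 0.00966). Both were below the array median in all 5 expressing lines and above the 75th percentile of the array in clone 2. Trpv6 was called in every setting, and S100g in all but an offset of 0 (adjusted p = 0.142).

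Slc15a3, a lysosomal carrier of histidine and small peptides, was called in every setting, at 457 against 36.5, 24.0, 10.2, 28.3 and 34.4 (log2 difference 3.42). Abcc3, an export pump for conjugated bile acids and drugs, was at 3395 against 809, 400.0, 600.0, 298 and 442 (2.77), a call lost once the original cells were left out (adjusted p = 0.0515). Kcnk2, a potassium channel opened by stretch, was at 368 against 46.4 to 85.4 (2.23), also lost without the original cells (0.0545). Fxyd3 and Fxyd5, small regulators of the sodium pump, lie next to each other in gene order and both rose, Fxyd3 to 2106 against 211 to 622 and Fxyd5 to 975 against 149 to 302, and only Fxyd3 lost its call without the original cells (0.0646). Fxyd4, the regulator typical of the collecting duct, went the other way, at 781 against 3759, 2304, 3884, 3246 and 4214 (log2 difference -2.10, SE 0.28, limma adjusted p = 0.00977), and was called in every setting. The zinc importer Slc39a4 rose too (2.22, adjusted p = 0.04), but not without clone 10 (0.0511), clone 11 (0.0672) or the original cells (0.0857). The group's genes that missed the test were Gabrp, Folr1, Nipal2, Abcg2 and Slc22a4, with log2 differences between 1.19 and 2.12. The wider lists went both ways, with 4 ion channel genes of 64 called higher and 4 lower (6.25% each), and 5 solute carriers of 181 called higher (2.76%) and 7 lower (3.87%), against 1.29% and 1.86% over all genes.

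**Figure D2:**
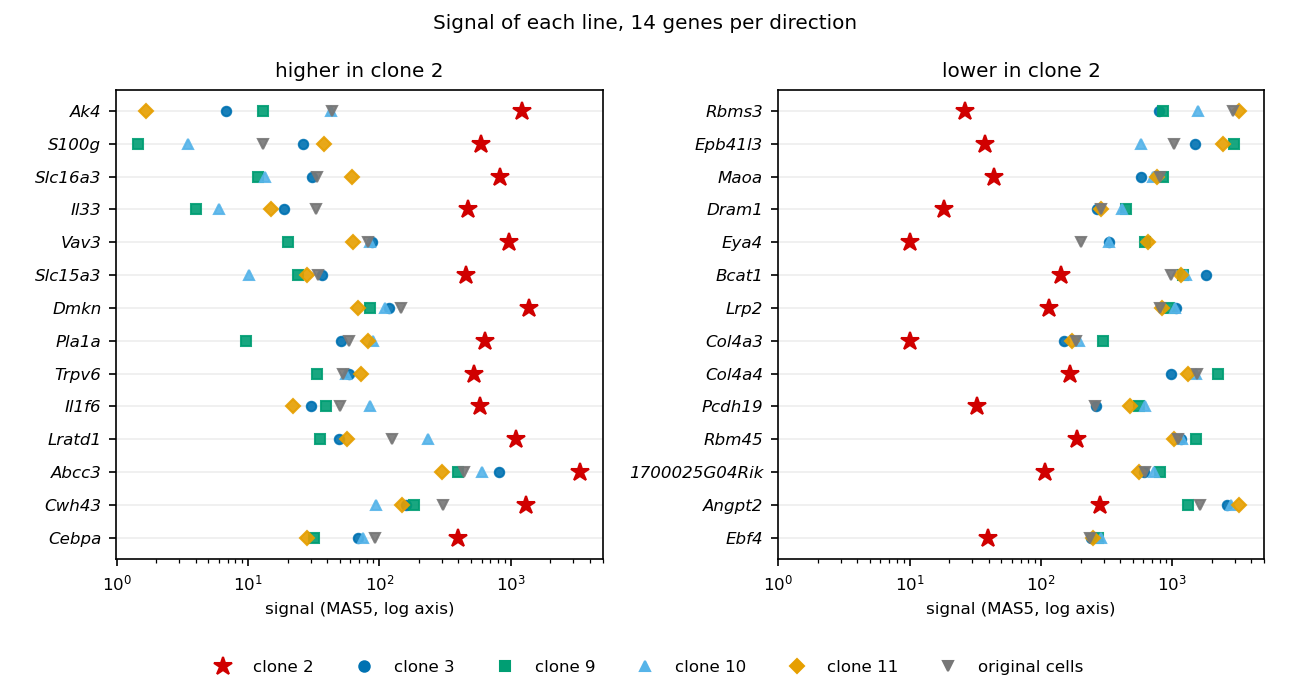
The MAS5 signal of each line on a log axis for the 14 called genes per direction with the widest gap between clone 2 and the nearest expressing line, leaving out interferon and principal cell genes. Stars mark clone 2 and the other symbols the 5 expressing lines, from Ak4 at 1226 in clone 2 to Ebf4 at 39.8.

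Cytokines and immune signalling genes outside the interferon list numbered 10, of which 7 rose. Il1f6, a cytokine of epithelia in the interleukin-1 family, had 580 in clone 2 and 30.2, 39.4, 84.6, 22 and 50 elsewhere (log2 difference 3.30, SE 0.50, limma adjusted p = 0.0169), and it was called in every setting. Its neighbour in gene order, Il1rn, the interleukin-1 receptor antagonist, was at 581 against 146, 228, 133, 111 and 177 (log2 difference 1.79, adjusted p = 0.0353), a call lost without clone 3 (0.0595), clone 10 (0.0557), clone 11 (0.0518) or the original cells (0.0736). Il33, an alarmin stored in the nucleus of barrier cells, was at 475 against 18.7, 4.01, 5.98, 14.9 and 32.8 (3.92), and lost its call only with an offset of 0 (0.0959). The adhesion molecule Pvr and the decoy receptor Tnfrsf22 rose as well, by 1.28 and 1.78, and both calls were lost once the original cells were left out (adjusted p = 0.0545 and 0.0515), that of Tnfrsf22 also without clone 10 (0.0502) or clone 11 (0.0582). Tnfrsf23, the neighbour of Tnfrsf22 and also a decoy receptor, stood at 273 against 63.3 to 109 without passing (adjusted p = 0.0568). Over the whole list of cytokines, chemokines and their receptors, 5 of 88 measured genes were called higher (5.68%, against 1.29% over all genes) and 0 lower, and 6 were 2-fold above the range. Interferon genes themselves, 82 of which were measured, had 28 called higher and 32 at least 2-fold above all 5 lines, and their part in the other cytokine values was not tested.

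Genes of barrier and squamous epithelium made up 8 of the higher genes, and 4 of them rose. Dmkn, dermokine, a secreted protein of stratified epithelium, reached 1373 against 119, 84.5, 111, 68.8 and 146 (log2 difference 3.52, SE 0.35, limma adjusted p = 0.00381) and was called in every setting. Sbsn, suprabasin, its neighbour in gene order, stood at 1539 against 713, 738, 649, 582 and 679 (1.18, adjusted p = 0.0169), with the call lost without the original cells (0.0512). Ecm1, extracellular matrix protein of skin, was at 882 against 299 to 397 (1.31), and the protease inhibitor Slpi at 289 against 79.6 to 102 (1.54), and both were lost once the original cells were left out (adjusted p = 0.0515 and 0.0788), Slpi also without clone 3 (0.0601), clone 10 (0.0565) or clone 11 (0.0613). The other 4 did not pass. They were Cers3, a ceramide synthase of the skin barrier (681 against 9.8 to 166), the galectin Lgals7 (627 against 26.4 to 163), the mucin Muc4 (1244 against 157 to 483) and Tgm1, the transglutaminase of cornified cells (1227 against 223 to 491). The 5 squamous keratinocyte markers Krt5, Krt14, Krt1, Trp63 and Krtdap, a list added after these genes were seen, summed to 164 in clone 2 and 84.9 to 189 in the other lines.

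Among 10 enzymes, mainly of lipids, polyamines and nucleotides, 8 rose, among them a pair of enzymes of polyamine breakdown. The 8 also include the protease gene Ctsc and the glycosylation gene St3gal1, which fall outside these classes. Sat1, which acetylates spermidine and spermine, was at 7790 against 3155, 3009, 3188, 2292 and 2811 (log2 difference 1.43, SE 0.18, limma adjusted p = 0.00932) and was called in every setting. Smox, spermine oxidase, was at 2245 against 1035, 1081, 822, 781 and 1013 (1.24, adjusted p = 0.0241), with the call lost without the original cells (0.0552). Ctsc, the lysosomal protease cathepsin C, had the tightest values of this group, 4391 against 2158, 1908, 2009, 1974 and 2125 (1.1), and was called in every setting. Pla1a, a phospholipase, was at 640 against 9.59 to 88.8, and Acsl4, which activates arachidonic acid, at 3478 against 922 to 1621. Bst1, an enzyme of NAD metabolism, was at 2448 against 333 to 858. The calls for these 3 were lost once the original cells were left out (adjusted p = 0.0857, 0.0845 and 0.08). Those for Pla1a and Bst1 were also lost without clone 3 (0.0645 and 0.069), that for Pla1a without clone 11 (0.0581) and that for Acsl4 without clone 10 (0.0511).

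The group of growth and guidance signals and GTPase regulators had 10 higher genes but only 3 calls. Vav3, an exchange factor of cell signalling, rose to 978 against 88.2, 20.1, 85.3, 62.6 and 82.1 (log2 difference 3.62, SE 0.53, limma adjusted p = 0.0145) in every setting. Ereg, the growth factor epiregulin, was at 441 against 148 to 206, and the small GTPase Rasl11a at 970 against 325 to 453, both lost on leaving out clone 11 (adjusted p = 0.0662 and 0.0546) or the original cells (0.0682 and 0.0545), Ereg also without clone 3 (0.0595) or clone 10 (0.0633). Ephb6, the neighbour of Trpv6 in gene order and an ephrin receptor without kinase activity, stood at 464 against 6.34 to 107 and did not pass (adjusted p = 0.0682). Of 5 genes of transcription and chromosome proteins, Chrac1, a histone-fold subunit of a chromatin remodeller, was called in every setting, at 2158 against 718, 794, 882, 925 and 964. The centromere protein Cenpv was at 508 against 122 to 183, and Cebpa, a factor of differentiation, at 397 against 27.9 to 92. The call for Cebpa was lost on leaving out clone 3 (adjusted p = 0.066), clone 10 (0.0593), clone 11 (0.0602) or the original cells (0.0687). Among the 13 higher genes given no group, Tinagl1, a secreted protein of the tubule basement membrane (1173 against 358 to 425), and Cwh43 (1317 against 94.0 to 307) were called in every setting.

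On the lower side, the widest gap was that of Rbms3, an RNA-binding protein, with 26.3 in clone 2 and 797, 853, 1558, 3231 and 2918 in the expressing lines. Its log2 difference was -5.15 (SE 0.70, limma adjusted p = 0.0108), and the call was lost with the robust fit (0.0694). Clones 3 and 9 lay well below clone 11 and the original cells, so the 5 lines themselves differed, and none came near clone 2. Rbm45, another RNA-binding protein, was tighter, at 189 against 1173, 1507, 1190, 1023 and 1100 (log2 difference -2.54, SE 0.21, limma adjusted p = 0.00347). Pdcd4, which inhibits translation initiation, was at 1506 against 3236 to 3791 (-1.22). Both Rbm45 and Pdcd4 were called in every setting. Across the list of RNA-binding proteins, 4 of 238 were called lower (1.68%, close to the 1.86% over all genes) and 0 higher.

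Matrix and basement membrane genes numbered 8 among those 2-fold below, and 7 of them fell. Col4a3 and Col4a4 encode the collagen IV chains of mature basement membranes and lie next to each other on chromosome 1. Col4a3 had 10.0 in clone 2 and 151, 298, 196, 173 and 186 in the expressing lines (log2 difference -2.90, SE 0.35, limma adjusted p = 0.00807). Col4a4 had 165 against 982, 2229, 1522, 1316 and 1541 (-3.01, SE 0.34, limma adjusted p = 0.00648). In both, clone 9 was the highest line and clone 3 the lowest of the 5. Col27a1, a fibrillar collagen, was at 28.1 against 229, 192, 314, 177 and 179 (-2.31), and Fn1, fibronectin, at 3138 against 7781, 9014, 7322, 9454 and 6738 (-1.34). These 4 were called in every setting. Frem2, a protein that anchors epithelia to their basement membrane, was at 1038 against 2317 to 5263 (adjusted p = 0.0499), a call lost on leaving out any one of clones 3, 10 and 11 and the original cells (0.0595 to 0.096). The principal cell list gene Npnt, nephronectin, also a basement membrane protein, was at 3833 against 9723 to 11479 (-1.48) and was called in every setting. In the wider list of matrix genes, 8 of 55 measured genes were called lower (14.5%, against 1.86% over all genes) and 1 higher (1.82%, against 1.29%), 2 lay 2-fold above the range, and the median log2 difference was -0.22. Ecm1 and Tinagl1, described with the higher genes, went the other way.

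Of 8 junction and adhesion genes, 4 fell. Pcdh19, a protocadherin, was at 32.8 against 262, 557, 615, 472 and 260 (log2 difference -3.04, SE 0.46, limma adjusted p = 0.0164), and Panx1, a pannexin channel that releases ATP, at 24.2 against 145, 179, 214, 180 and 157 (-2.16, SE 0.29, limma adjusted p = 0.0108). Both were called in every setting. Cdh3, P-cadherin, fell to 816 against 1743 to 3092, but not without clone 3 (adjusted p = 0.0579), clone 11 (0.062) or the original cells (0.0674). Igdcc3, an adhesion protein of the immunoglobulin class, fell to 225 against 476 to 738, but not without clone 11 (0.0615) or the original cells (0.0857). Cdh2, N-cadherin, at 3.62 against 428, 1623, 81.4, 592 and 302, and Gja1, connexin 43, at 9.57 against 105, 683, 164, 830 and 307, had gaps as wide but varied so much among the 5 lines that they did not pass (adjusted p = 0.0758 and 0.0731). The urothelial tetraspanin Upk1a (209 against 485 to 1142) and the claudin Cldn9 (492 against 1018 to 2776) did not pass either. In the wider list of integrins, cadherins and cell adhesion genes, 3 of 91 were called lower (3.3%, against 1.86% over all genes). None was called higher (against 1.29%), and the median log2 difference was -0.02.

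The genes of the cytoskeleton and its regulators numbered 12, and 9 fell. Epb41l3, a band 4.1 protein that ties membrane proteins to spectrin, had 37.7 in clone 2 and 1488, 2945, 574, 2450 and 1023 elsewhere (log2 difference -4.70, SE 0.70, limma adjusted p = 0.016), a call lost with the robust fit (0.0832). The giant linker Dst, dystonin, was at 311 against 1542, 1200, 1751, 1393 and 1313 (-2.13, SE 0.21, limma adjusted p = 0.00381). Dmd, dystrophin, which links actin to the matrix receptor, was at 115 against 450, 440, 600, 477 and 434 (-1.89). Dock8, an activator of the GTPase Cdc42, was at 154 against 657, 745, 674, 658 and 728 (-2.04). Dst, Dmd and Dock8 were called in every setting. In the list of actin, myosin and membrane cytoskeleton genes, 8 of 131 were called lower (6.11%, against 1.86% over all genes) and 1 higher (0.763%, against 1.29%).

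Secreted signals and their receptors gave 10 lower genes, 7 of them called. Angpt2, angiopoietin 2, was at 282 against 2625, 1318, 2775, 3195 and 1625 (log2 difference -2.87, SE 0.42, limma adjusted p = 0.0145). Lgr6, a receptor that enhances Wnt signals, was at 75.1 against 298, 367, 350, 446 and 460 (-2.09), and the adhesion receptor Adgrg6 at 530 against 1357 to 2205 (-1.72). These 3 were called in every setting. Ackr3, a scavenger receptor of the chemokine CXCL12, was at 96.7 against 373 to 1111 and lost its call without clone 10 (adjusted p = 0.06), clone 11 (0.0672) or the original cells (0.065). Wnt9a, a Wnt ligand, was at 74.3 against 205 to 454 and lost its call without clone 3 (0.0584), clone 10 (0.0633) or clone 11 (0.0518). In the list of Wnt, Notch, Hedgehog, BMP and TGF-beta genes, 4 of 78 were called lower (5.13%, against 1.86% over all genes) and 0 higher, with a median log2 difference of -0.29.

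Transcription and chromatin genes were the largest function group among the lower genes, with 13 and 11 calls. Eya4, a coactivator of sine oculis homeobox factors, had 10.1 in clone 2 and 331, 624, 330, 653 and 203 in the other lines (log2 difference -3.83, SE 0.53, limma adjusted p = 0.0117). Ebf4, of the early B-cell factor family, was at 39.8 against 242, 274, 285, 250 and 236 (-2.23, SE 0.23, limma adjusted p = 0.00512). Tet1, a dioxygenase that starts DNA demethylation, was at 30.9 against 198, 244, 144, 209 and 204 (-2.12). Zfp820 was at 101 against 423 to 600, and Myb, a factor of proliferating progenitors, at 148 against 416 to 546. All 5 were called in every setting. The homeobox factor Msx2, at 46.0 against 180 to 312, lost its call without the original cells (adjusted p = 0.0512). Smarca1, an X-linked chromatin remodeller, was at 3.15 against 52.4 to 172 (adjusted p = 0.0499) and lost its call without clone 3 (0.0669), clone 10 (0.0765) or the original cells (0.108). Ppargc1a, the coactivator of mitochondrial genes, stood at 17.4 against 59.3 to 412 without passing (0.127). Of 283 genes on the list of transcription factors, 14 were called lower (4.95%, against 1.86% over all genes) and 3 higher (1.06%, against 1.29%). Among 272 zinc-finger genes of the Zfp family, 4 were called lower (1.47%) and 2 higher, and among 190 genes of chromatin and DNA methylation 2 each way (1.05%).

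Among 8 enzymes of amines, amino acids and redox, 7 fell. Maoa, monoamine oxidase A, had 44.0 in clone 2 and 578, 846, 707, 767 and 802 in the other lines (log2 difference -3.58, SE 0.23, limma adjusted p = 0.00148). Bcat1, the cytosolic aminotransferase of branched-chain amino acids, was at 142 against 1789, 1207, 1273, 1167 and 972 (-2.99, SE 0.27, limma adjusted p = 0.00381), and Msrb3, which repairs oxidised methionine, at 189 against 837 to 1092 (-2.19). These 3 were called in every setting. Gsta3, a glutathione transferase, was at 191 against 609 to 1561, Glul, glutamine synthetase, at 92.1 against 252 to 389, and Aldh2, mitochondrial aldehyde dehydrogenase, at 100 against 324 to 795. Their calls were lost once the original cells were left out (adjusted p = 0.0645, 0.0544 and 0.0857), those for Gsta3 and Glul also without clone 11 (0.0514 and 0.0571), and that for Aldh2 also without clone 10 (0.0658). In the list of amino acid and amine metabolism, 6 of 59 genes were called lower (10.2%, against 1.86% over all genes) and 2 higher (3.39%, against 1.29%), with a median log2 difference of -0.28. In that of detoxification and redox, 3 of 85 were called lower (3.53%) and 0 higher.

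Lipid enzymes and carriers numbered 6, of which 5 fell. Elovl6, which elongates palmitate, was at 1388 against 4995, 4258, 5997, 6377 and 4344 (log2 difference -1.87, SE 0.22, limma adjusted p = 0.00757), and Hacd4, a dehydratase of very long fatty acids, at 185 against 591 to 806 (-1.74). Plcg2, a phospholipase C, was at 323 against 707 to 881 (-1.21). Scd1, a desaturase of saturated fatty acids, was at 1080 against 2287 to 4152 (adjusted p = 0.0498), but its call was lost without clone 3 (0.0603), clone 10 (0.0584) or the original cells (0.0939). Elovl6, Hacd4 and Plcg2 were called in every setting. The wider list of lipid and sterol genes went both ways, with a median log2 difference of -0.01. Of 139 genes, 6 were called lower (4.32%, against 1.86% over all genes) and 4 higher (2.88%, against 1.29%).

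Of 7 genes of endocytosis, lysosome and membrane traffic, 6 fell. Lrp2, megalin, the large endocytic receptor known from the proximal tubule, was at 116 against 1067, 943, 1056, 834 and 809 (log2 difference -2.83, SE 0.21, limma adjusted p = 0.00247). The other proximal tubule markers Slc34a1, Slc5a2 and Cubn lay below the array median on every array. Dram1, a lysosomal protein of autophagy, was at 18.2 against 267, 447, 415, 284 and 287 (-3.25, SE 0.32, limma adjusted p = 0.00381), and the vesicle protein Scamp5 at 334 against 1040 to 1246 (-1.68). All 3 were called in every setting. Sort1, the sorting receptor sortilin, and Cpe, carboxypeptidase E of secretory granules, were at 149 against 566 to 1699 and 2514 against 6078 to 10279, with calls lost once the original cells were left out (adjusted p = 0.0629 and 0.0512). In the list of lysosome, autophagy and endocytosis genes, 5 of 185 were called lower (2.7%, against 1.86% over all genes) and 2 higher (1.08%, against 1.29%).

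Of the 4 channels and transporters 2-fold below the range, all passed the test, while the wider lists given above went both ways. Aqp6, a water channel of intracellular vesicles that lies near Aqp2 on chromosome 15, was at 39.0 against 328, 292, 250, 222 and 313 (-2.36, SE 0.27, limma adjusted p = 0.00648) in every setting, and its 5 expressing values were far tighter than those of Aqp2. Slc41a2, a magnesium transporter, was at 68.1 against 360, 279, 234, 282 and 230 (-1.75), a call lost only with no filter (adjusted p = 0.0501). Slc7a7, an amino acid transporter of the basolateral membrane, was at 74.4 against 176 to 308 (adjusted p = 0.0438), and its call was lost on leaving out any one of clones 3, 10 and 11 and the original cells (0.0688 to 0.0859). Cacna1g, a calcium channel, was at 160 against 364 to 659 (adjusted p = 0.0433), and its call was lost without clone 3 (0.0712), clone 11 (0.0721) or the original cells (0.0846). Of 3 lower kinase and phosphatase genes 1 passed, the tyrosine phosphatase Ptpn18, at 88.3 against 330, 403, 409, 435 and 359 (-1.92), called in every setting.

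Of the 26 lower genes given no group, 18 fell. The abundant nuclear RNA Malat1 was at 7711 against 23706, 19834, 18062, 21685 and 20206 (log2 difference -1.42, SE 0.14, limma adjusted p = 0.00381), and Tmem123 at 716 against 1619 to 1901. Ndrg4 was at 117 against 334 to 449, and Cpne8, a copine, at 457 against 1295 to 1726. Hoxd3os1, an antisense transcript of the HoxD cluster, was at 777 against 1686 to 1925. The transcripts 1700025G04Rik and ccdc198, as the gene table spells them, were at 108 against 558 to 809 and 103 against 358 to 487. These 7 were called in every setting.

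**Figure D3:**
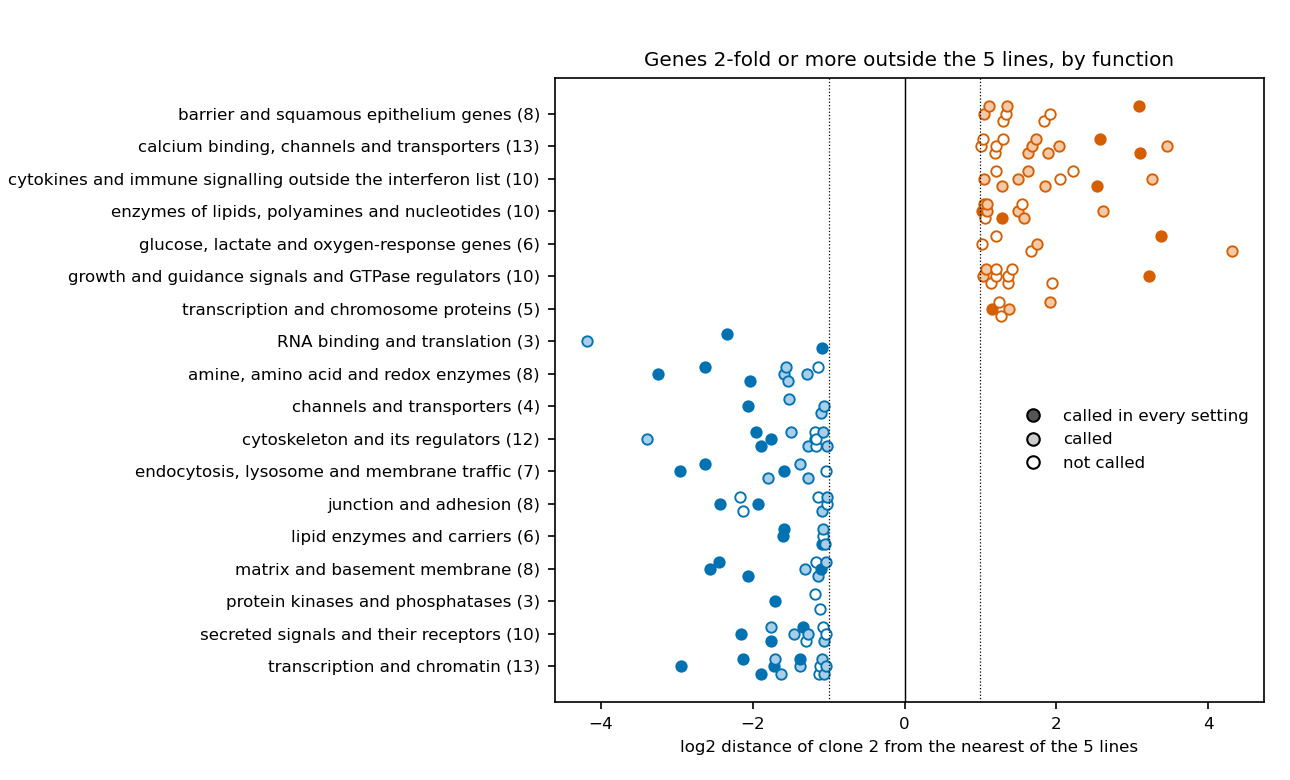
Each circle is 1 of the genes at least 2-fold outside the range of the 5 lines, placed by the log2 distance of clone 2 from the nearest line, with genes above in orange and genes below in blue. Filled circles were called by limma in every setting, pale ones were called but lost the call in some setting, open ones did not pass, and dotted lines mark the 2-fold rule.

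A few genes switched between the extremes of the array. Rbms3, Epb41l3 and Maoa were below the array median in clone 2 and above the 75th percentile in all 5 expressing lines. In the reverse direction there were 7 genes, Ak4, S100g, Slc16a3, Trpv6 and Il1f6 and the interferon genes Ifi27l2a and Oas3. Trpv6, at 526 in clone 2, was just above the 75th percentile there, 523.3. Maoa in clone 3 (578, percentile 545.3) and Epb41l3 in clone 10 (574, percentile 540.0) were also near it. The reverse class had 0 genes when the filter was set on the expressing lines, since all 7 passed through clone 2. No detection calls were used, so a low signal does not show that a transcript was absent.

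The CpG content of the upstream windows varied from gene to gene. Over 250 bases, the median number of CpG dinucleotides was 17 for the 8459 tested genes with a listed promoter, 5 for the 79 matched higher genes and 11 for the 85 matched lower ones, while it was 6 over all 27025 listed promoters. Among the higher genes it was 5 both for the 56 matched ones whose mean over the expressing lines passed the filter and for the 23 whose mean did not. These medians are descriptions. Of genes in the switching classes, 4 are shown with each CG in capitals (RefSeq, assembly GRCm38.p6), the first 2 lower and the last 2 higher in clone 2.
Rbms3 (chr9:117629914-117630163, strand minus): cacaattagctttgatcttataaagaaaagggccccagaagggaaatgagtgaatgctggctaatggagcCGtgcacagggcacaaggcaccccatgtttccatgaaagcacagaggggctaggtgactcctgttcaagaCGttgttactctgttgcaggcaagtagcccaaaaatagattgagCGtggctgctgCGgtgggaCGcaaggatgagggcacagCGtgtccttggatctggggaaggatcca
Maoa (chrX:16619448-16619697, strand plus): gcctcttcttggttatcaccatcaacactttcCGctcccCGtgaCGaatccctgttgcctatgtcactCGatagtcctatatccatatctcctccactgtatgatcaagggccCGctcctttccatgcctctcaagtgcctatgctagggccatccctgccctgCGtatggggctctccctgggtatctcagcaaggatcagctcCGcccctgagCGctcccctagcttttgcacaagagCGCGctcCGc
S100g (chrX:162964600-162964849, strand minus): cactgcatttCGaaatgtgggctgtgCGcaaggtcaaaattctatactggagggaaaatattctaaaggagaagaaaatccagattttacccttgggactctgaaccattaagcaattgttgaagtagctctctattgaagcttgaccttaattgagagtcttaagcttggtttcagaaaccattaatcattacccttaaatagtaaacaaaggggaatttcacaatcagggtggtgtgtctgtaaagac
Trpv6 (chr6:41636406-41636655, strand minus): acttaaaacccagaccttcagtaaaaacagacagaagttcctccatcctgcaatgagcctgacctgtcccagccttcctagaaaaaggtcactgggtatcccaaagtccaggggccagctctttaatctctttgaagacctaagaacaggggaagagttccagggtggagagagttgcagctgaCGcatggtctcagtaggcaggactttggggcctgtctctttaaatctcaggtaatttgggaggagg
The windows of the lower genes Rbms3 and Maoa held 6 and 11 CpG dinucleotides. Those of the higher genes S100g and Trpv6 held fewer, 2 and 1. Of the other switching genes with a listed promoter, the lower gene Epb41l3 had 9, and the higher genes Oas3, Ak4 and Slc16a3 had 1, 19 and 29. Ak4 and Slc16a3 had more than any of the lower ones, so over all these genes the counts of the 2 directions overlapped. DNA methylation was not measured.

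Position on the chromosomes set clone 2 apart from the other lines for most of the genome, as measured with RefSeq gene order. For each chromosome, the median log2 difference of clone 2 from the 5 lines was set beside the same median for each of them against the other 4. Clone 2 lay outside the range of the 5 on 17 of 20 chromosomes, all but 8, 9 and 18. It was lowest on chromosomes 17 (median -0.37, other lines -0.14 to 0.14), 1 (-0.28, -0.08 to 0.06), 10 (-0.24, -0.14 to 0.09) and 19 (-0.23, -0.12 to 0.11). It was highest on the X chromosome (0.47, -0.10 to 0.16) and on 12 (0.22, -0.11 to 0.06). Expressing lines were shifted too on the chromosomes where clone 2 lay inside the range. Clone 9 was at 0.37 on chromosome 18 and at 0.22 on chromosome 8. On chromosome 9, clones 9 and 11 were at 0.21 and 0.19 and clones 3 and 10 at -0.21 and -0.22. Such shifts widen the range that clone 2 is set against.

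**Figure D4:**
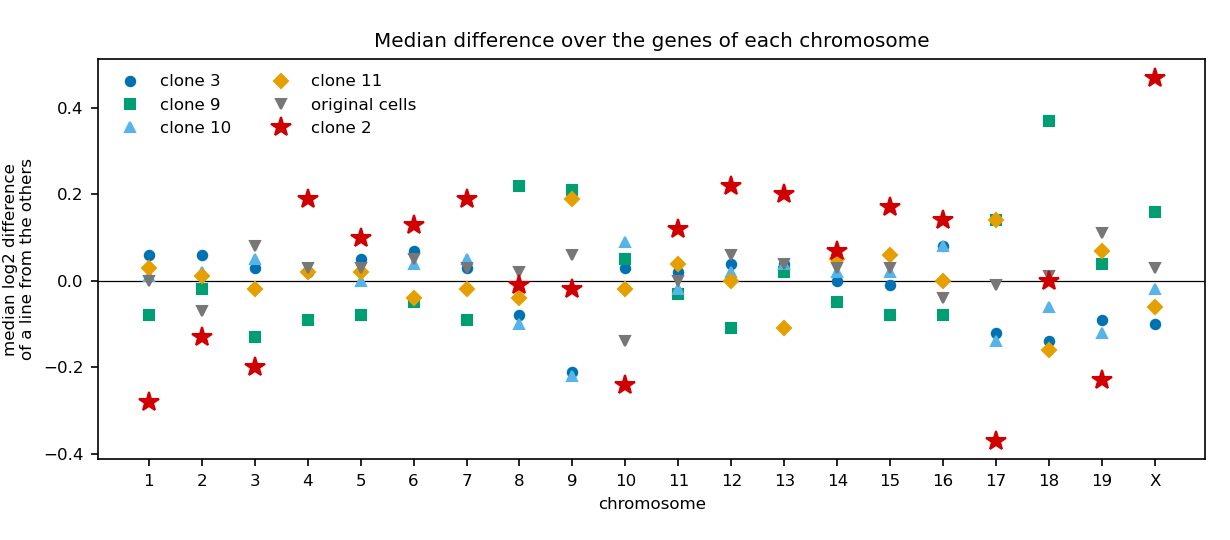
The vertical axis gives the median log2 difference over the genes of each chromosome, for clone 2 (star) against the 5 expressing lines and for each of these against the other 4. Clone 2 is at 0.47 on the X chromosome and at -0.37 on chromosome 17.

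Genes 2-fold outside the range followed these medians in part. Chromosome 1 had 19 genes below the range among 571 (3.33%, against 1.08% over all chromosomes) and 1 above. Chromosome 10 had 14 below among 514 (2.72%) and 1 above. Chromosome 7 had 17 above among 749 (2.27%, against 1.03%), chromosome 12 had 9 above among 382 (2.36%), and chromosome 11 had 15 above among 898 (1.67%). Chromosome 15 had 8 above among 400 (2%). These counts include interferon genes. They are Ifi47, Irgm2, Xaf1, Lgals9, Slfn2, Ccl5 and Lgals3bp on chromosome 11 and Rsad2, Cmpk2, Ifi27l2a and Ifi27 on chromosome 12. Chromosome 7 holds Irf7, Trim30a, Ifitm3 and Isg20, and chromosome 15 holds Ly6e. The X chromosome went against its own median, with 6 genes below the range, Maoa, Pcdh19, Dmd, Smarca1, Kctd12b and Fhl1, and 4 above among 297. Chromosome 17, with the lowest median, had 4 below and 1 above among 507. Chromosomes 4 and 13, with medians of 0.19 and 0.20, also had more genes below than above. Chromosome 4 had 5 below and 3 above among 645, and chromosome 13 had 3 below and 1 above among 384.

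Along the chromosomes the shifts of clone 2 were often even, and on chromosomes 2, 8, 9 and 11 they changed over a short distance. The 10307 genes with a position were cut into 402 blocks of 25 genes in gene order, the last block of a chromosome holding the remainder as well. On chromosomes 17 and X all blocks of clone 2 lay on the same side, between -0.49 and -0.26 and between 0.28 and 0.59. The expressing clone 9 was above clone 2 in the first block of the X chromosome (0.59 against 0.50). It was also above in the last blocks, from Rps6ka6 onward (0.44, 0.71 and 0.66 against 0.28, 0.52 and 0.45). Between these, from Elk1 to Sh3bgrl, clone 9 lay between -0.19 and 0.08. On chromosome 8 the first 17 blocks, 425 genes from Insr to Smpd3, had a median of 0.10, and the last 5 blocks, 148 genes from Zfp90 onward, had -0.45 (other lines -0.14 to 0.26). In that end stretch 105 of 148 genes lay below the range of the 5 lines (70.9%), against 71 of 425 before it (16.7%), and it holds Cdh3, Plcg2 and Irf2bp2. On chromosome 2 the first 500 genes had a median of -0.26 (other lines -0.07 to 0.09) and the remaining 311 of 0.10 (-0.10 to 0.22). On chromosome 11 a stretch of 75 genes from Ovca2 to Zfp207 had a median of -0.32 (other lines -0.09 to 0.05), with 49 of them below the range of the 5 lines (65.3%), between 400 genes with a median of 0.18 and 423 with 0.12. The borders were placed after the values were seen. Single expressing lines had such stretches too. Clone 11 lay between -0.52 and -0.36 from Zfp712 to the end of chromosome 13. Clone 10 was at 0.58 and 0.50 in the first blocks of chromosome 7, and clone 9 at -0.57 and -0.44 in the last of chromosome 3. Of 402 blocks of clone 2, 16 were at -0.4 or below and 10 at 0.4 or above. Of 2010 block medians of the expressing lines, 14 were at least 0.4 in size.

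The steepest step lay at the start of chromosome 9. The first 25 measured genes, from Alkbh8 to Panx1, had a median log2 difference of -1.05 in clone 2, against -0.29 to 0.30 in the other lines, and the next 550 had -0.01. Of the 25, 24 lay below the range of all 5 lines (96%) and 7 were called lower. They include Yap1, the effector of the Hippo pathway, at 1200.0 against a mean of 2540.0 (log2 difference -1.05, limma adjusted p = 0.0496), and Birc2, an inhibitor of apoptosis, at 410.0 against 803 (-0.91, adjusted p = 0.104). The DNA repair gene Mre11a was at 442 against 941 (-1.03, adjusted p = 0.0933). Birc3, the neighbour of Birc2, was the exception, at 178 against 163. Beyond Panx1 (-2.16), Med17, Taf1d, Chordc1 and Zfp317 still had log2 differences between -0.76 and -1.31, while Vstm5 and Smco4 among them were at -0.06 and 0.03 and the next genes Zfp560 and Zfp266 at -0.15 and -0.25. Tmem123, Endod1 and Panx1 of the 2-fold genes lie in this stretch. The next lowest of the 402 blocks of clone 2 was at -0.57, and no copy number or genotype was measured, so what underlies the shift was not tested.

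**Figure D5:**
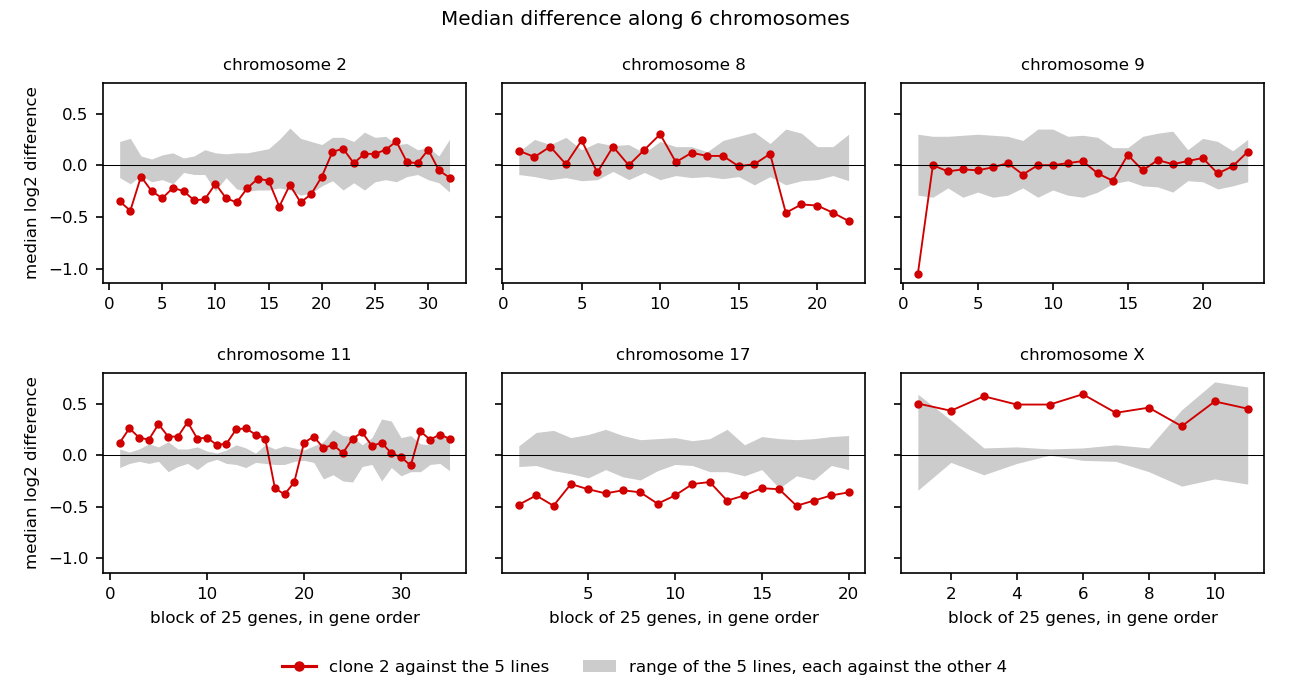
Median log2 difference per block of 25 genes in gene order along chosen chromosomes, for clone 2 against the 5 lines (red) and the range of the 5 lines, each against the other 4 (grey). Clone 2 is at -1.05 in the first block of chromosome 9 and drops from 0.11 to -0.46 near the end of chromosome 8.

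Neighbouring genes were outside the range together in 18 pairs, 9 of them without interferon genes. The lower pairs were Col4a4 with Col4a3 and Obsl1 with Inha, both on chromosome 1. The higher ones were Il1f6 with Il1rn, Ephb6 with Trpv6, Sbsn with Dmkn, Fxyd5 with Fxyd3, Tnfrsf22 with Tnfrsf23, Slc22a4 with P4ha2, and Lratd1 with Trib2. Neighbour here means next in order among measured genes.

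The 5 expressing lines were not alike in the genes that set clone 2 apart. Among the 107 genes 2-fold above, clone 9 was the lowest of the 5 for 37.4% and clone 11 for 41.1%, against 28.2% and 18.9% over all genes. Clone 3 was the highest for 38.3% and clone 10 for 23.4%, against 17.8% and 19.5%. The share of clone 3 was 71.9% among the 32 interferon genes. Among the other 75 it was 24%, with 28% for clone 10 and 24% for the original cells. In median, clone 3 lay 0.31 above the other 4 lines on the log2 scale for the 107 genes, the original cells 0.18 and clone 10 0.16, while clone 11 lay at -0.29 and clone 9 at -0.33. Without the 32 interferon genes the medians were 0.21, 0.19, 0.18, -0.23 and -0.31. For the 78 higher genes whose mean over the expressing lines passed the filter they were 0.29, 0.17, 0.17, -0.40 and -0.29. The genes were chosen with the values of these same lines, so the order is a description. For the 112 genes below the range the medians of the 5 lines lay between -0.12 and 0.08.

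Further probe sets of the same genes gave the same direction. Of the 107 higher genes, 24 had other probe sets past the filter, 35 in all, of which 35 were also higher, 34 above the range and 19 at least 2-fold above it. Of the 112 lower genes, 58 had 95 others, of which 95 were lower, 89 below the range and 47 at least 2-fold below it. Such probe sets share the RNA and the array, so they check the probe and not the cells.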

How the data were processed

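The authors deposited MAS5 signal intensities on a linear scale for 6 Affymetrix mouse arrays of biotin-labelled RNA. The software was Affymetrix Expression Console 1.1, by the submitters' processing notes. Without the lowest and highest values, the mean signal of each array was 500.0, which shows scaling to a common level. Since MAS5 subtracts mismatch probes, weak signals are noisy, and no detection calls were used here. Groups followed the labels. After leaving out 64 control probe sets, 45037 remained, of which 34945 had 1 gene, 932 several and 9160 none named, per the platform annotation, with symbols and gene order from RefSeq (GRCm38.p6).

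Values were log2(signal + 18.81), with the 25th percentile of all signals as offset, which understates differences between weak signals. Probe sets averaging above 85.46 entered a limma 3.58.1 fit under R 4.3.3 (lmFit, eBayes with trend, 4 residual degrees of freedom, two-sided, Benjamini-Hochberg over 22518 probe sets, threshold 0.05). A gene is its probe set of highest mean. The text names Aqp2, the 12 called genes per direction with the widest gap, up to 4 called genes per list and direction, genes that switch between low and high, and neighbouring genes, 89 in all, plus further members of the function groups. The members, the lists and the named genes were chosen with earlier results of these data known, and the function groups were made after the values were seen. Genes named from the stretch at the start of chromosome 9 were also chosen after their values were seen. The alternatives were an offset of 0 or doubled, other filters, median centring, quantile normalization, eBayes robust or without trend, leaving out each expressing line, another choice of probe set, and centring per chromosome. The fit was tested on simulated data. The number of arrays limits the precision.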

Additional observations from a re-analysis of the deposited data

Results flagged for a closer look

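Among the 5 expressing lines, 89 named genes and 20 chromosome medians were examined for a line far from the other 4 (gap over range above 0.71, which chance exceeds in about 1 in 20 groups). The 4 cases found are no more than that rate gives over so many groups, so they are descriptions. Clone 9 was far below the others for Vav3, with a signal of 20.1 against 62.6 to 88.2, and for P4ha2, with 28.5 against 607 to 891. Clone 9 was also apart in the median of chromosome 4, at -0.09 against 0.02 to 0.03, and clone 11 in that of chromosome 13, at -0.11 against 0.02 to 0.04. In all 4 cases the line that stood apart lay further from clone 2 than the other expressing lines did.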

How the results depend on the processing

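No paired analysis was possible because the groups share only 1 replicate number and clone 2 is a single array. The 89 named genes gave 1262 values under the alternatives, of which 0 changed direction, 189 were no longer called, 6 were newly called and 1067 kept their call status. In all of these genes clone 2 lay at least 2-fold outside the range of the expressing lines. That choice left little room for a change of direction, so the 0 is a description and no test of robustness. The probe sets called numbered 184 higher and 376 lower. They became 76 and 134 with no filter on low signal, 69 and 150 without the mean-variance trend, and 110 and 234 with centring per chromosome, chosen after seeing the data. Median centring gave 232 lower. Leaving out 1 expressing line gave 47 to 324 higher and 109 to 618 lower, lowest without the original cells, where 153 of the 560 were called again, and highest without clone 9, where all 560 were. Genes 2-fold outside the range fell from 107 and 112 to 26 and 54 with a filter at the 75th percentile, where fewer genes are tested. The fall was larger for the higher genes, of which 29 had a mean over the expressing lines under the main filter. With no filter the higher genes rose to 177. In both directions the counts stayed within 1.5 times of 107 and 112 under all other alternatives run. The 7 genes high in clone 2 and low elsewhere were 0 with that filter or with a filter on the expressing lines, and 7 to 12 with 1 line left out. Low signals near background limit the size of differences, and with 1 array per line the spread within a line is unknown.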
